A study of Mus musculus with 2 samples.

Results

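Cytosolic ribosomal proteins, the proteins of the large and small subunits of the cytoplasmic ribosome, were compared between hepatocytes of oil-injected and CCl4-injected mice. The members were all genes of the mRNA table whose symbol has the form of a ribosomal protein name (Rpl or Rps with a number and at most a short suffix, Rplp0, Rplp1, Rplp2 and Rpsa), without the S6 kinases, and 1 transcript stood for each gene, the one highest on average. The rule chose genes by name, and measured values entered it only in the choice of transcript. It was set with earlier results of these data known. The rule found 81 genes with 96 transcripts among 20317 genes with a symbol, 50 of the large and 31 of the small subunit. Of these, 77 had a value of at least 1 RPKM (reads scaled by transcript length and by the library's total) in at least 1 library and were compared, among 12012 such genes. The other 4, Rpl3l, Rpl10l, Rpl32l and Rpl39l, were listed at 0 in both libraries.

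The study sequenced RNA of primary hepatocytes, the main secretory and metabolic cells of the liver, from male WT mice of the strain C57BL/6J. In 1 library the mice had received intraperitoneal oil, and in the other CCl4, at a dose of 2.5 ml per kilogram in a 20% solution, and injections were given 2 times per week to mice obtained at an age of 5 weeks. The methods give 4 weeks of injection and the labels 8 weeks. CCl4 is a solvent that hepatocytes convert to a toxic radical, and its repeated injection is a standard model of liver fibrosis. The cells were prepared by enzyme perfusion and a density gradient, the number of mice per library is not stated in the sources used here, and with 1 library per group no difference has a replicate check.

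A ribosome holds 1 copy of nearly all of its proteins, so cells make these proteins in matched amounts. Their mRNAs are among the most abundant of any cell, and most begin with a cytosine followed by a run of pyrimidines, the terminal oligopyrimidine tract. This tract couples their translation to the growth-sensing kinase mTOR through the binding protein Larp1. The liver exports much of the plasma's protein, which makes ribosomes a large part of what a hepatocyte builds.

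The pyrimidine run can be seen in the annotated starts of several members. RefSeq promoters of GRCm38.p6, each with 250 bases before and 50 after an annotated start, were found for 61 of the 81 members. The windows below hold 20 bases before and 20 from the start, written 5′ to 3′ on the gene's strand, with the longest run of C or T in capitals. They are shown because they hold the 4 longest runs among the members (Rpl7a, Rpl27a, Rpl34 and Rpl35), some of the members with large differences between the libraries (Rps12, Rps27) and the 2 members with the smallest (Rps27l, Rps2). This choice does not show whether run length and difference go together. Among other members with large differences, the longest run had 7 bases in Rps19 and 3 in Rpl41, but 10 in Rps15a and 13 in Rpl31. Rpl7a lies at chr2:26910787-26910826 on the plus strand, Rpl35 at chr2:39005112-39005151 on the minus strand, Rpl27a at chr7:109519175-109519214 on the plus strand, Rpl34 at chr3:130730318-130730357 on the minus strand (1 of its 2 annotated starts), Rps12 at chr10:23787190-23787229 on the minus strand, Rps27 at chr3:90213629-90213668 on the minus strand, Rps27l at chr9:66946066-66946105 on the plus strand and Rps2 at chr17:24720043-24720082 on the plus strand.
Rpl7a: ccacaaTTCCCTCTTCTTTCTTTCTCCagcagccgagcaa
Rpl35: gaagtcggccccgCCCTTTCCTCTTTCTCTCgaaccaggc
Rpl27a: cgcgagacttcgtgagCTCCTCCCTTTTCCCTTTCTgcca
Rpl34: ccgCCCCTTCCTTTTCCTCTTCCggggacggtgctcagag
Rps12: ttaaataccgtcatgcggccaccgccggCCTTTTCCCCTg
Rps27: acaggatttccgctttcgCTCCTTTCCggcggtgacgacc
Rps27l: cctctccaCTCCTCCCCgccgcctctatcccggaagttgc
Rps2: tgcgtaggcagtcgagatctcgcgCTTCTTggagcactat
The run has 21 bases in Rpl7a, 20 in Rpl27a and in Rpl34, 18 in Rpl35, 11 in Rps12, 9 in Rps27 and in Rps27l, and 6 in Rps2. At the other annotated start of Rps27l the longest run has 4 bases. In Rpl7a, Rpl27a, Rpl34, Rpl35 and Rps27 it spans the annotated start, in Rps12 it begins after it, and in Rps27l it ends before it.

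Another short sequence was found near the start of some members. The windows of Rps19 (1 of its 3 annotated starts, chr7:24884572-24884611 on the plus strand) and Rps28 (chr17:33824543-33824582 on the minus strand) carry the motif TCGCGAGA, here in capitals, and are shown because the motif is rare among all promoters.
Rps19: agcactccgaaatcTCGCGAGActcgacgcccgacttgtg
Rps28: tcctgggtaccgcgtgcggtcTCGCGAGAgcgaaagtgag

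The hepatocyte label was checked against marker genes. All 8 hepatocyte markers were present, and their summed level was 16718 RPKM for oil and 9944 RPKM for CCl4. Albumin (Alb) was at 8656 and 6476 RPKM. The 9 markers of stellate cells or myofibroblasts, the collagen-producing cells of the liver, summed to 75.2 RPKM for oil and 879 RPKM for CCl4. Macrophage markers (6 of 7 compared) summed to 777 and 1482 RPKM, endothelial markers (6 of 6) to 416 and 685 RPKM, and lymphocyte markers (4 of 5) to 20.3 and 34.6 RPKM. The 4 erythroid markers had a median difference of -0.54 on the log2 scale, and 3 of 4 cholangiocyte markers had 0.64. Cd3e and Sox9 were listed at 0 in both libraries, and Cd68 had no matching transcript. These cell types also express ribosomal protein genes, and the part that the markers' shift has in the differences reported here was not tested. In bulk RNA, a different number of cells of a type and a different amount of RNA per cell cannot be told apart. Library totals recovered from the RPKM of short genes were 57992450 reads for oil and 64655500 for CCl4, which puts at least 754 reads per kilobase behind every compared member.

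In the CCl4 library nearly the whole family stood above the oil library by a similar factor. Of the 77 compared members, 76 had the higher level in the CCl4 library, where 69.8% of all compared genes did, and Rps27l was the only exception. With both libraries scaled to the median mRNA, 75 of 77 were higher, against 52.8% of all genes, and Rps2 joined Rps27l below 0. The median difference was 0.59 on the log2 scale (CCl4 minus oil, with 0.1 RPKM added to each value), which is 1.51-fold, against a median of 0.37 over all 12012 genes. No member differed by 2-fold in either direction, whereas 19.3% of all genes were at least 2-fold higher and 5.68% at least 2-fold lower. At a milder limit of 1.5-fold, 41 of 77 members were higher and none lower, against 36.7% and 11.8% of all genes. Since the family's median lies at that limit, the count of 41 splits the family near its middle. After scaling to the median mRNA the family's median was 0.265, and at the 1.5-fold limit none of the 77 was higher and 1 was lower, against 22.5% and 19.5% of all genes, a combination chosen after seeing the data.

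Differences lay close together within the family. The SD of the difference over members was 0.17, the middle 50% of members lay between 0.51 and 0.68, and 71 of 77 (92.2%) were within 0.25 of the family's median. Over all genes the SD was 0.97, the middle 50% lay between -0.12 and 0.83, and 29.2% were within 0.25 of their own median. The 78 mitochondrial ribosomal proteins compared below had an SD of 0.29, with 66.7% within 0.25 of their own median. A spread narrower than that of all genes is therefore not particular to this family. Counting error, taken from the library totals for a transcript of 500 bases, gives an SE of 0.02 for the difference of a member at the median level and of 0.09 for the lowest member. These errors cover counting only.

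Other abundant mRNAs mostly had lower levels in the CCl4 library. Of 377 genes outside the family with a mean of at least 100 RPKM over both libraries, 100 were higher, and their median difference was -0.73. This limit depends in part on the difference itself, and of the members 73 reached it while Rps27l, with a mean of 91.0 RPKM, did not. Genes of hepatocyte function such as Alb and Cyp2e1, which activates CCl4, are among these 377.

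Summed over the compared members, the family reached 17384 RPKM for oil and 26129 RPKM for CCl4, a ratio of 1.503. All 12012 compared genes, with 1 transcript per gene, summed to 337504 and 281257 RPKM. On this scale ribosomal protein mRNA made up 5.15% for oil and 9.29% for CCl4, a ratio of 1.804. The other genes together were at 0.797 times their oil sum. Both terms enter the larger share, the higher ribosomal protein levels and the lower sum of the others.

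Levels within the family spanned 67.2-fold for oil and 62.7-fold for CCl4, but most members lay close together. In the oil library 67 of 77 members and in the CCl4 library 61 were between 100 and 500 RPKM. RPKM is scaled by transcript length, which puts these levels on the same scale. Reads shared with near-identical copies may still alter the level of a member, so the order of members is as listed only. The most abundant member in both libraries was Rpl41, a tiny basic peptide at the joint of the subunits, with 874 RPKM for oil and 1485 RPKM for CCl4. It alone made up 5.03% of the family's sum in oil and 5.68% in CCl4. Next came Rplp1 of the stalk with 658 and 991 RPKM, where pairs of values are given here and below in the order oil, CCl4. Rps2, at the channel through which mRNA enters, followed in the oil library, with 591 and 657 RPKM. Rps29, a small zinc-binding protein beside the mRNA channel, followed in the CCl4 library, with 427 and 685 RPKM. Rpl13a, which also forms an inhibitor of translation when phosphorylated after interferon, had 436 and 656 RPKM.

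At the low end, Rps15a stood apart with 13.0 and 23.7 RPKM. Rpl22, which cells can lack and which is known for its role in T cell development, had 24.2 and 33.6 RPKM. Both lay far below Rpl21 with 59.8 and 96.8 RPKM and Rpl15 with 82.5 and 130.1 RPKM. Ribosomal protein genes have many pseudogenes, copies that share their sequence. RefSeq names 318 pseudogenes for 62 of the members, up to 24 for a single gene. Across the 77 members the rank correlation of this number with the mean level was -0.13 and with the difference 0.03, given as a description. How reads with several matches were counted is not given in the sources used here.

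The order of levels was nearly the same in both libraries. Across the 77 members, which share their libraries, Pearson's r of the log2 levels was 0.983 and Spearman's rho 0.985. The rank correlation between the mean level and the difference was 0.10, so abundant and scarce members stood apart between the libraries by similar amounts.

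**Figure D1:**
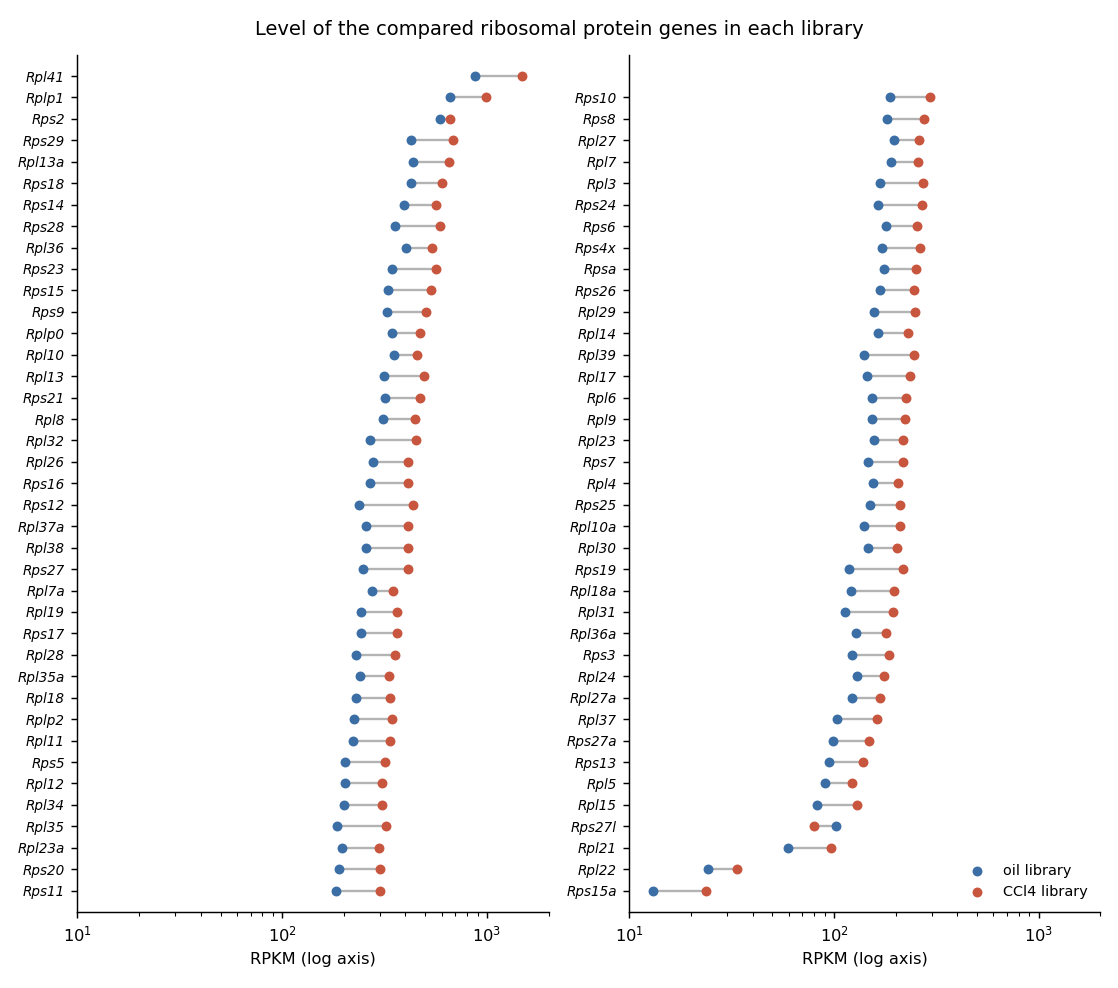
Level of the 77 compared ribosomal protein genes in RPKM (log axis), sorted by mean level, for oil (blue) and CCl4 (red), 1 library each, with a grey line joining the pair. The red point lies to the right for 76 genes and to the left for Rps27l.

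The 46 compared members of the large subunit had a median difference of 0.58 (SD 0.12) and all were higher in the CCl4 library. The 31 small subunit members had a median of 0.61 (SD 0.22), with 30 higher and 1 lower. Without Rps27l the small subunit's SD was 0.14, and its middle 50% lay between 0.56 and 0.71, against 0.47 and 0.67 for the large subunit. Whether the subunits differ was not tested. Proteins that have counterparts in bacteria and archaea, the conserved core (33 members), had a median of 0.59, and the other 44 compared members had 0.60.

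The stalk of the large subunit recruits the elongation factors. Its base Rplp0 had 344 and 471 RPKM, a difference of 0.45. Its acidic tips Rplp1 and Rplp2 had differences of 0.59 and 0.60, Rplp2 from 225 to 342 RPKM. Rpl5 and Rpl11 carry the small 5S rRNA into the large subunit and, when free, bind the p53 regulator Mdm2. Rpl5 had 90.2 and 123.0 RPKM (0.45), and Rpl11 had 222 and 335 RPKM (0.59).

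Near the centre where peptide bonds are formed, Rpl3 had 168 and 273 RPKM (0.70), Rpl8 had 311 and 445 RPKM (0.52), and Rpl10, a protein added late in assembly, had 352 and 457 RPKM (0.37). Along the tunnel through which the new chain leaves, Rpl4 had 155 and 205 RPKM (0.40) and Rpl39 had 140 and 245 RPKM (0.80). At the tunnel's mouth, Rpl35 had 185 and 320 RPKM (0.79), Rpl31 had 113 and 195 RPKM (0.79) and Rpl23a had 197 and 296 RPKM (0.59). Rpl39 and Rpl35 were among the family's 5 largest differences and Rpl10 among its 5 smallest.

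The smallest differences in the large subunit belonged to Rpl7a with 274 and 346 RPKM (0.335), Rpl10 and Rpl27 with 196 and 259 RPKM (0.40). The 4 members with the longest pyrimidine runs, shown above, were spread over the family, with differences of 0.335 for Rpl7a, 0.45 for Rpl27a, 0.63 for Rpl34 and 0.79 for Rpl35. Other members are often studied for roles outside the common core. Rpl38, known from the axial skeleton of mouse mutants, had 257 and 410 RPKM (0.67). Rpl24, which joins the large subunit late, had 129 and 176 RPKM (0.45), and Rpl10a had 141 and 209 RPKM (0.57).

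In the small subunit the 3 largest differences of the whole family were found. Rps12 had 237 and 435 RPKM (0.88). Rps19, the gene most often mutated in Diamond-Blackfan anaemia, had 118 and 216 RPKM (0.88). Rps15a had the low levels given above and a difference of 0.86. These 3 reached at most 1.84-fold and stayed under the 2-fold limit.

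Around the decoding site, Rps23 had 342 and 563 RPKM (0.72), Rps15 had 327 and 531 RPKM (0.70), and Rps18 had 425 and 606 RPKM (0.51). At the entry of the mRNA channel, Rps3 had 122 and 185 RPKM (0.60), whereas its neighbour Rps2 differed by only 0.15. At the exit of the channel, Rps14 had 394 and 561 RPKM (0.51), Rps26 had 167 and 246 RPKM (0.56) and Rps28 had 357 and 591 RPKM (0.73).

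Rps2 was the member farthest from the rest after Rps27l. It was the third most abundant member in the oil library and was 1.11-fold higher in the CCl4 library, so its part of the family's sum was 3.40% for oil and 2.51% for CCl4. Under scaling to the median mRNA its difference turned to -0.17. Rps6, the substrate of the S6 kinases, had 179 and 255 RPKM (0.51). Rpsa, also known as a laminin receptor, had 176 and 250 RPKM (0.51). Rps27a, made as a fusion with ubiquitin, had 98.5 and 147 RPKM (0.58).

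**Figure D2:**
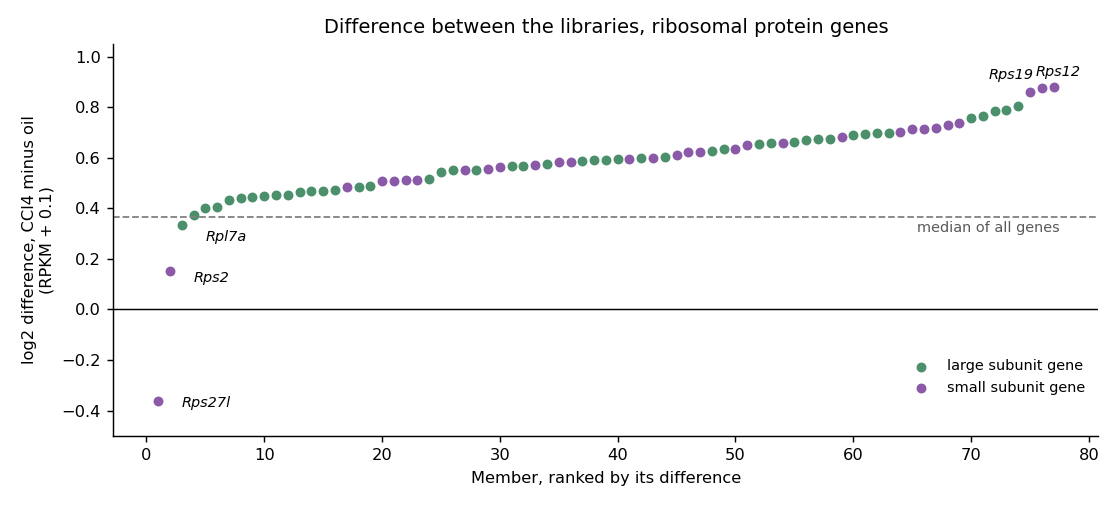
Log2 difference (CCl4 minus oil, 0.1 RPKM added) of each of the 77 compared members, ranked from lowest to highest and coloured by subunit, with a dashed line at the median of all genes. All points but Rps27l lie above 0, and 74 of 77 lie above the dashed line at 0.37.

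Some ribosomal proteins are encoded by 2 expressed genes, a main copy and a second copy. Rps27 and Rps27l encode near-identical proteins, and Rps27l is known as a target of p53. Rps27 had 247 and 411 RPKM (0.74) and Rps27l 102 and 79.7 RPKM (-0.36). The main copy was therefore 2.41 times the second copy with oil and 5.16 times with CCl4. This was the only member with a lower level in the CCl4 library.

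The same comparison was made for 3 further pairs, in which the rule does not include the symbol of the second gene. Rpl7l1 is taken here as a relative of Rpl7 and not as a second gene for the same protein. Rpl36a had 128 and 179 RPKM (0.49), and its copy Rpl36al had 317 and 234 RPKM (-0.44). Rpl36al was the more abundant gene in both libraries, with a ratio of main to second copy of 0.403 for oil and 0.764 for CCl4. The words main and second name the genes here and do not rank their levels. Rpl7 had 190 and 258 RPKM (0.44) and its relative Rpl7l1 19.6 and 16.9 RPKM (-0.21). Rpl22 and Rpl22l1 went together, with 24.2 and 33.6 RPKM for the first and 26.6 and 36.0 RPKM for the second, which was slightly higher in both libraries. Thus in 3 of 4 pairs, Rpl7 with its relative among them, the second gene was lower in the CCl4 library while the first was higher. In the fourth the 2 copies had differences of 0.47 and 0.43. With both libraries scaled to the median mRNA, the difference between the copies of a pair is unaltered, since the same factor applies to both.

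**Figure D3:**
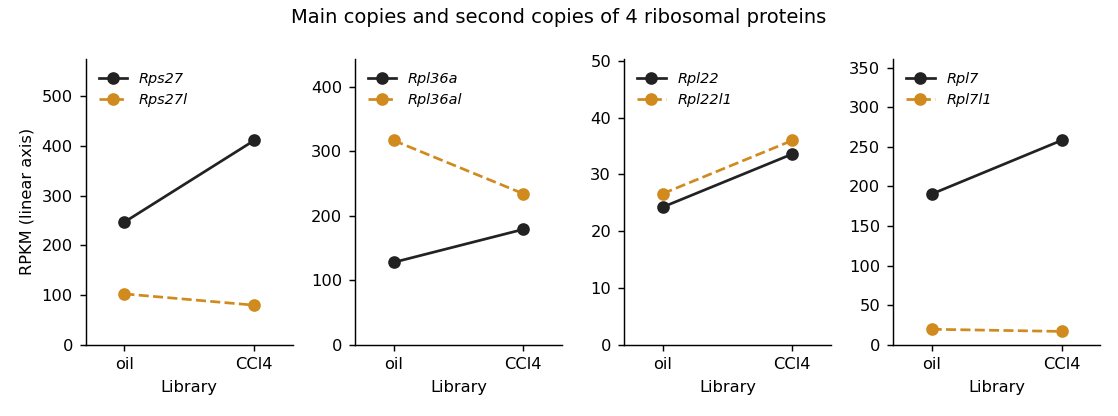
RPKM (linear axis from 0, a separate scale in each panel) of 4 ribosomal protein genes (black, solid line) for oil and CCl4, 1 library each. The orange dashed line is the second copy or, for Rpl7, the relative Rpl7l1. The lines run in opposite directions for Rps27, Rpl36a and Rpl7 and together for Rpl22.

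Rps27rt, a gene of near-identical sequence to Rps27, was listed at 248 and 412 RPKM. The ratio of Rps27 to Rps27rt was 0.997 in both libraries, so the same reads may be counted in both genes and their levels are uncertain. Rps3a1, the mouse gene of a small subunit protein that the naming rule leaves out, had 226 and 318 RPKM (0.49). The 4 copies listed at 0 in both libraries include Rpl10l, Rpl39l and Rpl3l, which are known from testis or muscle, and their main copies Rpl10, Rpl39 and Rpl3 were all detected.

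Fau, which encodes a ubiquitin-like protein fused to a small subunit protein, had 396 and 639 RPKM (0.69). Rack1, a scaffold on the small subunit that was added after its values were seen, had 186 and 283 RPKM (0.60).

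The choice of transcript had little bearing on a member's difference. Of the members, 9 had 2 or more compared transcripts, 23 in all. The largest spread of the difference between transcripts of 1 gene was 0.08, in Rpl35a, and in 7 of the 9 genes it was under 0.03.

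Other gene lists of protein synthesis had lower medians than the cytosolic ribosomal proteins. Mitochondrial ribosomal proteins, which build the separate ribosome of mitochondria, had a median difference of -0.25 over 78 genes, with 13 of 78 higher in the CCl4 library, against 69.8% of all genes, and 76 of 78 below the median of all genes. Their summed level was 1443 RPKM for oil and 1218 RPKM for CCl4. Only 1 of the 78 was at least 2-fold lower and none 2-fold higher, against 5.68% and 19.3% of all genes.

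The elongation factors work on the assembled ribosome. Eef1a1, which delivers aminoacyl-tRNA and was more abundant than any ribosomal protein gene, had 2004 and 2075 RPKM (0.05). Eef2, which moves the ribosome along the mRNA, had 470 and 539 RPKM (0.20). Tpt1, a partner of the Eef1 complex, had 190 and 289 RPKM (0.61), and Eef1g, a subunit of that complex, had 73.5 and 99.3 RPKM (0.43). The 8 compared elongation factors had a median of 0.16, and 6 of 8 were higher in the CCl4 library, near the 69.8% of all genes, while 2 of 8 lay above the median of all genes. Eef1e1, a subunit of the tRNA synthetase complex, had a difference of -0.65.

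The 35 initiation factors had a median of 0.01, with 18 of 35 higher in the CCl4 library, against 69.8% of all genes. At the 2-fold limit 1 of 35 was higher and none lower, against 19.3% and 5.68% of all genes. That 1 was Pabpc1, the main poly(A)-binding protein, with 15.01 and 30.3 RPKM (1.01). Next were Eif3f, a subunit of the scaffold Eif3, with 20.3 and 38.2 RPKM (0.91), Eif2b4, a subunit of the guanine nucleotide exchange factor, with a difference of -0.85, and Eif4g3 with 0.71.

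The 32 biogenesis genes, which process rRNA and assemble the subunits, had a median difference of -0.10, with 9 of 32 higher, against 69.8% of all genes. None was 2-fold higher or 2-fold lower, against 19.3% and 5.68% of all genes. Npm1, a nucleolar chaperone, had 39.2 and 55.7 RPKM (0.51), and Ncl, a major nucleolar protein, had 4.53 and 6.92 RPKM (0.60). Fbl, the methyltransferase of rRNA, had 12.3 and 12.7 RPKM (0.05). At the lower end, Nop16 had a difference of -0.92, Tsr1 of -0.84, Rrp12 of -0.67 and Nolc1 of -0.67. For the 14 genes of RNA polymerase I and its factors, which transcribe rRNA, the median was 0.13 with 8 of 14 higher, against 69.8% of all genes, and the largest differences were those of Taf1c (0.73), Ubtf (0.63) and Taf1b (0.62).

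Kinases and binding proteins that govern translation had a median of 0.21 over 21 genes. Of these, 16 of 21 were higher in the CCl4 library, near the 69.8% of all genes. After scaling to the median mRNA 8 of 21 were above 0, against 52.8% of all genes. Rps6ka1, a kinase downstream of growth factor signals, was the only one past 2-fold upward with 5.81 and 14.9 RPKM (1.34). Eif4ebp3, a binding protein of the initiation factor Eif4e, was the only one downward with 16.7 and 6.84 RPKM (-1.27). Of all genes, 19.3% were at least 2-fold higher and 5.68% at least 2-fold lower. Eef2k, which inactivates Eef2, had a difference of 0.89 and Rps6ka3 of 0.88. Of the genes named in the background, Mtor had 4.65 and 5.41 RPKM (0.21), Larp1 had 14.6 and 11.9 RPKM (-0.29). Myc, a transcription factor that drives many of these genes, had 2.57 and 3.72 RPKM (0.51).

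These directions depend in part on how the libraries are scaled. The median mRNA was 0.33 higher in the CCl4 library, and when both libraries were scaled to it the median of the cytosolic ribosomal proteins was 0.265, with 75 of 77 above 0. Under the same scaling the median was -0.57 for the mitochondrial ribosomal proteins and -0.42 for the biogenesis genes. It turned negative for elongation factors (-0.17), initiation factors (-0.32), RNA polymerase I (-0.19) and the kinases and binding proteins (-0.11). For lists other than the family, the 2-fold counts given above were taken before this scaling.

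**Figure D4:**
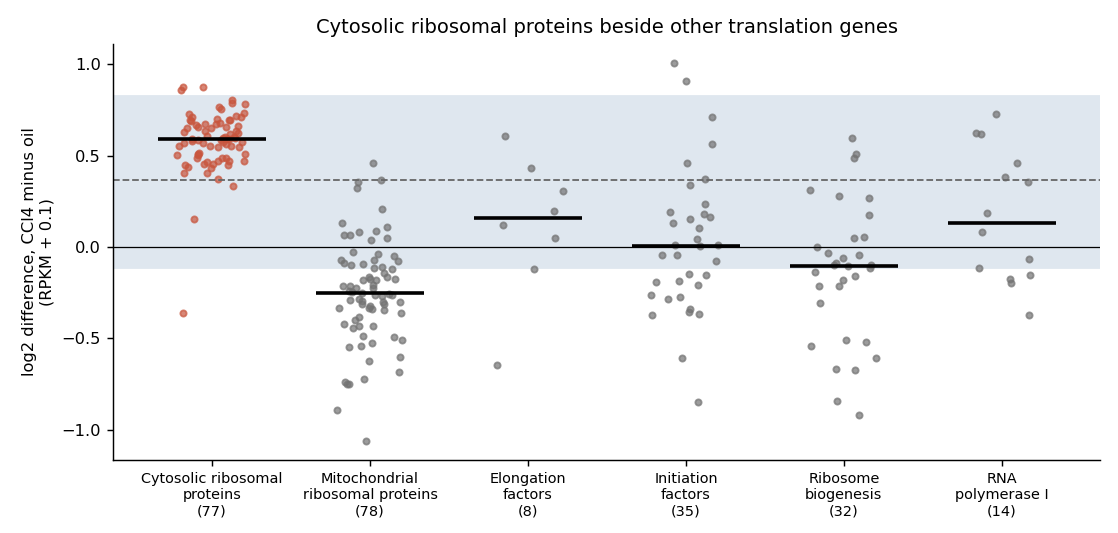
Log2 difference (CCl4 minus oil, 0.1 RPKM added) of single genes (points) in 6 lists, with the number of genes in brackets and a black bar at each list's median, before any rescaling. The dashed line is the median of all genes and the shaded band the middle 50% of them. The median of the 77 cytosolic ribosomal proteins, at 0.59, is the only one above the dashed line at 0.37.

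Sequence features at the starts were counted to see what the members share beyond their names. A run of at least 8 C or T within 20 bases on either side of the start was present in 31 of 73 member promoters (42.5%). It was present in 16.0% of the 12320 promoters of compared genes and in 13 of 75 promoters (17.3%) of mitochondrial ribosomal proteins. The motif CCGGAAG, searched on both strands over all 300 bases and known as a binding sequence of ETS and GABP factors, was in 35.6% of member promoters, in 34.7% of mitochondrial ones and in 16.7% of those of compared genes. The motif TCGCGAGA, searched with its reverse complement TCTCGCGA, which overlaps it where both are present, was in 15.1% of member promoters, 1.33% of mitochondrial ones and 2.05% of those of compared genes. A TATAAA sequence was in 9.59%, 6.67% and 7.91%. A match is a description of these letters and not of a factor's binding.

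The 29 compared members with a pyrimidine run had a median difference of 0.60, from -0.36 for Rps27l to 0.88 for Rps12. The 28 with a RefSeq promoter but no run had a median of 0.57, from 0.15 for Rps2 to 0.88 for Rps19. The 10 members with TCGCGAGA, among them Rps19, Rps28, Rpl35 and Rpl7a, had a median of 0.58 and ranged from 0.335 to 0.88, against 0.58 for the 47 without it. The 24 compared members with CCGGAAG had a median of 0.575, against 0.59 for the 33 without it. The 6 with TATAAA had a median of 0.48 and ranged from 0.15 to 0.80, against 0.59 for the 51 without it. The annotated starts are single positions, and the starts used in these hepatocytes were not measured.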

How the data were processed

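RNA-seq of 1 oil and 1 CCl4 hepatocyte library was analysed from the tables the authors deposited. The submitters' processing notes name CASAVA 1.4, TopHat2 and mm10, while the counting program, the annotation and the treatment of reads with several matches are not given in the sources used here. The deposited RPKM values were scaled by the authors to transcript length and total reads, and those below 1 were listed as 0. The deposited log2 change was used only to restore a value listed at 0 in 1 library (1822 values, no member among them). The deposited p-values and q-values hold the authors' own comparison and were not used.

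RefSeq identifiers were paired with symbols of GRCm38.p6 (27049 of 27457 mRNA identifiers). Differences are log2(RPKM + 0.1), CCl4 minus oil, over genes with at least 1 RPKM in 1 library, and a call is an absolute difference of at least 1. The depth was recovered as the library total that turned the RPKM of RefSeq genes under 400 bases into whole reads (within 0.03 reads in 167 of 171 genes for oil and 180 of 185 for CCl4). No p-value was computed, since each condition had 1 library. The text names members by the extremes of level and difference and by fixed role lists. Further members were named as examples of a site or role in the ribosome, and no rule chose these examples. For other lists it names the largest differences plus a few set genes. Restoring of values, the choice of transcript and the calls were tested on simulated data. 1 gene of the role lists is not reported here. The members and lists were chosen with earlier results of these data known. Alternatives were another pseudocount or none, 2 rescalings, a higher filter, listed zeros, summed transcripts, fewer paralogs and a milder call. The work was done with pandas 2.3.3, numpy 2.4.6, scipy 1.17.1 and matplotlib 3.10.9 in Python 3.11.15.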

Additional observations from a re-analysis of the deposited data

How the results depend on the processing

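The median difference of the family, its large and small subunit medians and the ratio of sums kept their direction under every alternative run. With the median mRNA equal in both libraries the 3 medians were 0.265, 0.26 and 0.28 and the sum ratio was 1.2, and library sizes without the 10 most abundant mRNAs gave 0.54 for the family, 0.56 for the small subunit and a sum ratio of 1.453. Summing transcripts or leaving out second-copy paralogs both gave a sum ratio of 1.51. A call at 1.5-fold gave 41 members higher and none lower, and, in a combination chosen after seeing the data, that call after median scaling gave none higher and 1 lower (Rps27l). Of the single members, Rps2 alone reversed, to -0.17 under median scaling, and none reversed with a pseudocount of 1 RPKM or summed transcripts. The filter at a mean of 10 RPKM and the treatment of listed zeros could not alter any value, since every compared member lies above 10 RPKM and none was listed at 0. No paired analysis was possible because each condition has 1 library. Depth does not limit these abundant genes, but the lack of replicates does, and cell mixture, read sharing with pseudogenes and animal number remain unmeasured.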

Other observations

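Genes that host small nucleolar RNAs, which guide the modification of rRNA, share the terminal pyrimidine tract with ribosomal protein genes, and were looked up in the lncRNA table after the values of the family had been seen. Of 15 Snhg genes there, 11 had a value in both libraries, 9 of 11 were higher in the CCl4 library, and their median difference was 0.41, from -0.38 for Snhg3 to 1.16 for Snhg9. Over the 7615 lncRNA transcripts with a value in both libraries, 68.5% were higher and the median was 0.26, so the count of 9 of 11 is read against that share. A further 3 were listed at 0 in the oil library only and 1 in both. Snhg8, the most abundant, had 37.3 and 42.8 RPKM, Snhg1 had 8.77 and 11.8 RPKM, and Snhg20 had 6.41 and 13.2 RPKM.

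Some ribosomal protein genes also have entries in the lncRNA table. A noncoding transcript of Rps27 was listed at a lower level than the mRNA, with 150.7 and 250.5 RPKM, a difference of 0.73, and a noncoding transcript of Rpl22 had 22.7 and 31.5 RPKM, a difference of 0.47. The pseudogenes Rplp2-ps1 (1.48 and 2.12 RPKM) and Rps19-ps3 (1.01 and 1.49 RPKM) had differences of 0.49 and 0.51. Rps4l, a copy of Rps4x listed there, had 21.0 and 18.5 RPKM, a difference of -0.19, while Rps4x had 0.62. Rmrp, the RNA of the enzyme that cuts the rRNA precursor, was listed at 33486 and 72286 RPKM, a difference of 1.11 in a transcript whose RPKM is scaled by a short length.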
